A study of Mus musculus with 15 samples.

Results

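The 36 genes described here are a list of cell cycle genes, 15 that act in DNA replication and 21 that act in mitosis, followed in the colon of 15 mice given DSS. They were taken by name from the 55335 genes with a level in each mouse's file, and all 36 were found, with no gene listed at 0 in any library. The replication genes are Mcm2 to Mcm7, Cdc6, Cdc45, Gins1, Gins2, Pcna, Rrm1, Rrm2, Tyms and Ccne1. The mitosis genes are Mki67, Top2a, Ccna2, Ccnb1, Ccnb2, Cdk1, Birc5, Aurka, Aurkb, Bub1, Bub1b, Plk1, Cenpa, Cenpe, Cenpf, Kif11, Kif20a, Kif23, Tpx2, Ube2c and Cdc20. All 15 mice received DSS (dextran sulfate sodium, a chemical that injures the colon lining). The 5 mice labelled DSS had this alone. A further 5 also received ICB, read here as immune checkpoint blockade because the series is about immunotherapy toxicity, and are called DSS_ICB. The last 5 received DSS, ICB and the gut bacterium Faecalibacterium prausnitzii by gavage, and are called DSS_ICB_Fp. No group without DSS and no group given the bacterium without ICB was analysed here. The strain, age and sex of the mice, the antibodies, the doses and the days of sampling are not given in the sources used here. Mice are numbered 1 to 5 in the order of the sample records, so a number links no mice across groups.

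A dividing cell passes through a fixed order of steps. In G1, cyclin D and cyclin E kinases release E2F transcription factors from the retinoblastoma family, and E2F turns on replication genes. The origin recognition complex and Cdc6 load the MCM ring onto DNA, Cdc45 and GINS turn it into an active helicase, and PCNA clamps the polymerases to the template. Later, cyclin A and cyclin B with CDK1 drive the cell into mitosis, and the DREAM and MuvB complexes with B-MYB and FOXM1 time the mitotic genes through CCAAT and CHR (cell cycle genes homology region) promoter elements. In the colon, most dividing cells are the transit-amplifying cells of the lower crypt, with further dividing cells among immune cells and, after injury, stroma. A bulk tissue level of these genes therefore depends both on how many cells divide and on how much of each transcript a dividing cell holds, and in these libraries fewer cells of a type and less RNA per cell cannot be told apart.

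The promoters of 4 members are shown, Mcm6 and Mcm5 for replication and Ccnb2 and Cdc20 for mitosis, as abundant members with a usable entry, so that the short elements named above can be seen in place. RefSeq promoter entries on the GRCm38.p6 build matched 29 of the 36 genes, with 30 promoters of 300 bases each (250 before and 50 after the start). Only bases before the start are printed, 5′ to 3′ on the gene's strand, and capitals mark matches to 3 sets of letters. The sets are CCAAT, the CHR letters TTTGAA or TTCGAA, and the E2F letters TTCCCGC with the variant form TTCGCGC, the variant form TTGCCGC and the variant form TTGGCGC, each searched on both strands, so a CCAAT match on the other strand reads ATTGG. Matches can overlap, as E2F matches on both strands do in Mcm6 and Mcm5, and each set was counted on its own.
Mcm6, a subunit of the replicative helicase, chr1:128359706-128359955, minus strand: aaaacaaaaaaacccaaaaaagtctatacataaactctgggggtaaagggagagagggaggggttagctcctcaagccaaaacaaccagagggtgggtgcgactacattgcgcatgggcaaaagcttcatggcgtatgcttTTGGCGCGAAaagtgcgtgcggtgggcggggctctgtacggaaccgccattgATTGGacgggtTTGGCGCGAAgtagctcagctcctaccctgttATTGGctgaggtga
Mcm5, a second helicase subunit, chr8:75109259-75109508, plus strand: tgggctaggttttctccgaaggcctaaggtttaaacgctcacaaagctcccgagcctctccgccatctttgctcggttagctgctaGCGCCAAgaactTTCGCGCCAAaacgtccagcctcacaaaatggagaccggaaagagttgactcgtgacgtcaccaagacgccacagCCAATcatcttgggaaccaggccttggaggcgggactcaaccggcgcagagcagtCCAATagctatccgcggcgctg
Ccnb2, cyclin B2, chr9:70421555-70421804, minus strand: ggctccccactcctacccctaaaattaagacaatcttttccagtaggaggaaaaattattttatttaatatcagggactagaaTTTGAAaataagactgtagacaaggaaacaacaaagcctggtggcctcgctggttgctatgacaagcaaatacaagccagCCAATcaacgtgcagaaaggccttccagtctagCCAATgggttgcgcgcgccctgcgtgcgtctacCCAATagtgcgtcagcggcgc
Cdc20, the activator of the anaphase-promoting complex, chr4:118437353-118437593, minus strand: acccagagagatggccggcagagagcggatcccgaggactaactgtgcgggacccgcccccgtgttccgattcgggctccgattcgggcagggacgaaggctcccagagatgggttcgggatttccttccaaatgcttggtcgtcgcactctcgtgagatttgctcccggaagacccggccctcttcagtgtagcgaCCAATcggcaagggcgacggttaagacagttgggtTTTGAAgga

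These 4 sequences show how the replication and mitosis promoters differ in letters. In Mcm6, 2 pairs of overlapping E2F matches begin 109 and 106, and 46 and 43, bases before the start, and CCAAT matches on the other strand lie 57 and 14 bases before it. In Mcm5, E2F matches lie 164, 152 and 149 bases before the start, with CCAAT at 77 and 22. Ccnb2 has no E2F match in the printed stretch, and 3 CCAAT matches stand 87, 54 and 21 bases before its start, evenly spaced, with a CHR match at 167. Cdc20 has CCAAT at 53 and CHR letters at 18 bases before the start, and a further CCAAT at 8, in bases not printed. Past the start, also not printed, lie E2F letters at 24 in Mcm6, CCAAT at 6 in Mcm5 and CHR letters at 4 in Ccnb2. Over the whole windows, E2F letters stood in 8 of 13 replication promoters (61.5%) and 3 of 17 mitosis promoters (17.6%), against 9.57% of the 32851 promoters in the table. CHR letters stood in 14 of 17 mitosis promoters (82.4%) and 3 of 13 replication promoters (23.1%), against 19.2% of all. CCAAT was common in both, in 10 of 13 (76.9%) and 16 of 17 (94.1%), against 37.4% of all. CCAAT and CHR letters together stood in 82.4% of the mitosis promoters, 23.1% of the replication promoters and 7.52% of all promoters. A match is a description of letters and not evidence of binding.

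The unit of level is FPKM, a fragment count divided by the length of the transcript and by the size of the library, so they can be set side by side between genes. An estimate of depth from the smallest steps between low values gave 15240000 to 24760000 fragments per library. The 10 colon epithelium markers summed to 4376 to 5736 FPKM in DSS, 694 to 5935 in DSS_ICB and 4466 to 6633 in DSS_ICB_Fp, and none of the 10 was at 0 in any library. The lowest sum, 694 FPKM, was in DSS_ICB 3, and the next lowest was 3372 FPKM. DSS_ICB 3 also had the highest smooth muscle sum (17526 FPKM, against 1329 to 5577 in the other 14), the highest neutrophil sum (2141 FPKM), the highest mitochondrial share (33.17% of its FPKM, against 9.39% to 25.8%) and the lowest median rank correlation with the other libraries (0.725, against 0.864 to 0.95). Group comparisons of the members that rest on it are given with and without it, and the part these markers play in them was not tested.

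All 36 genes passed the filter on low values (FPKM of 1 or more in 5 or more libraries). Cdc6 was under 1 FPKM in 2 libraries and the mitosis genes Bub1, Cenpe, Cenpf and Kif11 in 1, and the others in none. Averaged over all 15 mice, Pcna had the highest level of the 36 (55.0 FPKM), and Cenpf (2.64 FPKM) and Cdc6 (2.74 FPKM) the lowest. Reads of Pcna, Ccnb1 and Ccnb2 could be shared with annotated copies, of which Pcna-ps2 reached 21.8 FPKM, Ccnb1-ps 3.05 FPKM and Ccnb2-ps 1.38 FPKM, so the levels of these 3 genes are less certain.

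**Figure D1:**
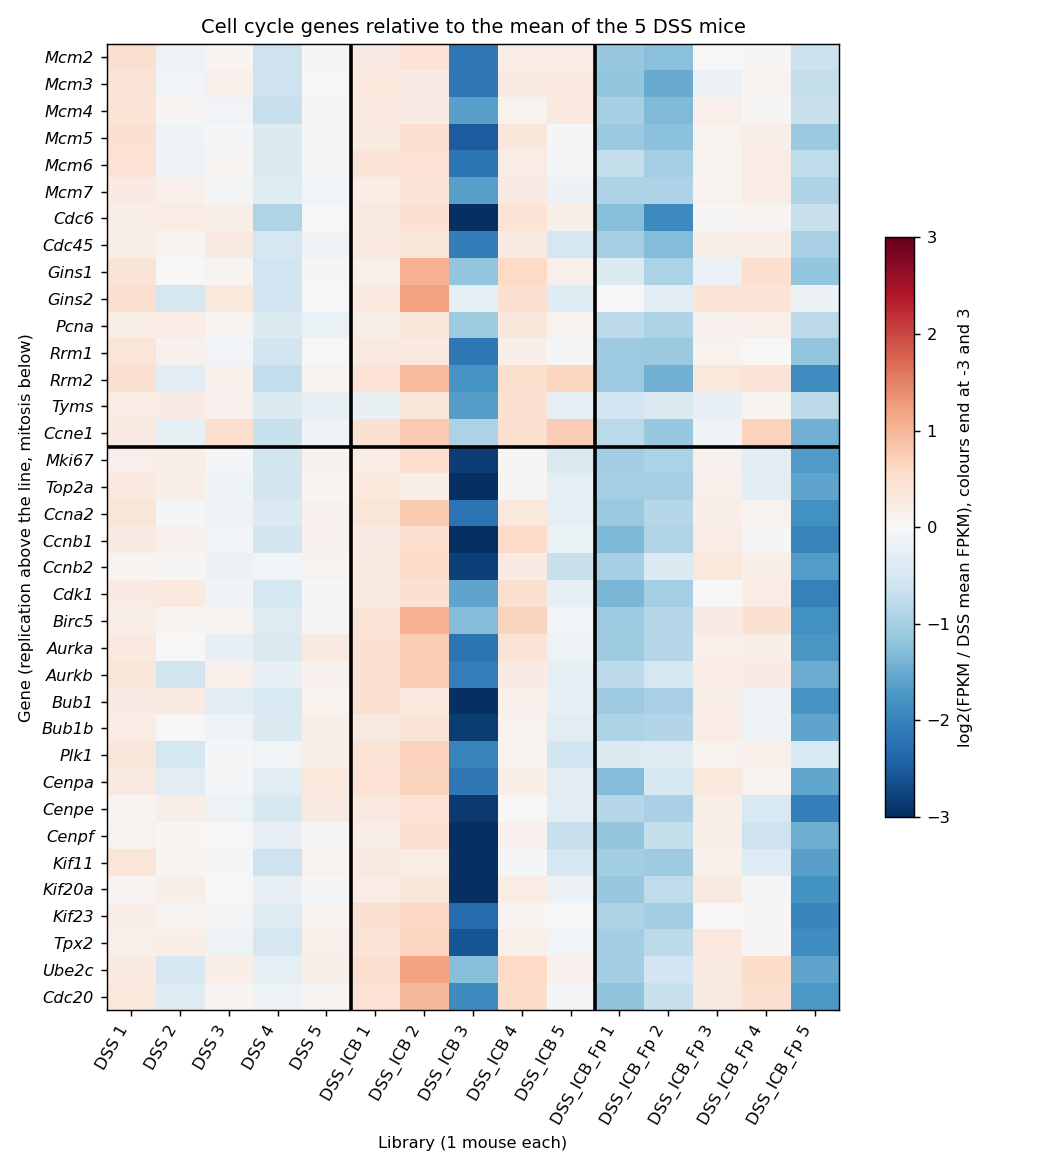
Heat map of the 36 genes (rows, replication above the black line and mitosis below) in the 15 libraries (columns, 1 mouse each), as log2 of FPKM over that gene's mean in the 5 DSS mice, with colours that end at -3 and 3. DSS_ICB 3 is blue in nearly every row, with levels of 8.27% to 83.6% of the DSS mean, and DSS_ICB_Fp mice 1, 2 and 5 are blue where mice 3 and 4 are near white or red.

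The helicase genes stood at middle levels. Mcm2 (ENSMUSG00000002870, chr6:88883474-88898780, minus strand), a subunit of the MCM ring, measured 11.4, 7.41, 8.47, 5.34 and 8.38 FPKM in DSS mice 1 to 5, 9.73, 11, 1.86, 9.63 and 9.52 in DSS_ICB mice 1 to 5 and 3.75, 3.45, 8.29, 8.36 and 5.25 in DSS_ICB_Fp mice 1 to 5. Mcm3 (ENSMUSG00000041859, chr1:20802968-20820312, minus strand), its partner in the ring, measured 20.6, 14.9, 17.6, 10.3 and 15.7 FPKM in DSS mice 1 to 5, 19.6, 18.7, 3.55, 19 and 19.3 in DSS_ICB mice 1 to 5 and 7.06, 5.51, 14, 16.8 and 9.66 in DSS_ICB_Fp mice 1 to 5. In both genes DSS_ICB 3 was far below the other 4 mice of its group, which lay within 9.52 to 11 FPKM for Mcm2 and 18.7 to 19.6 FPKM for Mcm3, and the 3 groups overlapped. In the other ring subunits DSS_ICB 3 was again the lowest of its group. Mcm4 averaged 18.5 ± 4.76 FPKM (11.4 to 24.7) in DSS, 18.6 ± 7.15 (5.94 to 22.5) in DSS_ICB and 13.6 ± 5.94 (7.38 to 20.7) in DSS_ICB_Fp. Mcm5 averaged 20.5 ± 4.66 FPKM (15.5 to 28.1) in DSS, 20.7 ± 10.1 (3.63 to 29.1) in DSS_ICB and 14.7 ± 7.49 (8.74 to 23.7) in DSS_ICB_Fp. Mcm6 averaged 22 ± 4.93 FPKM (16.2 to 29.5) in DSS, 22 ± 10.1 (4.88 to 29.5) in DSS_ICB and 17.3 ± 6.82 (10.8 to 25.7) in DSS_ICB_Fp. Values after ± are SDs over 5 mice, here and below, and ranges in parentheses are the lowest and highest mouse. Mcm7 averaged 20.1 ± 3.13 FPKM (15.7 to 23.7) in DSS, 19.6 ± 7.97 (6.48 to 26.3) in DSS_ICB and 15.3 ± 6.63 (10.5 to 23.5) in DSS_ICB_Fp. DSS_ICB_Fp mice 1, 2 and 5 all rounded to 10.5 FPKM for Mcm7, below the lowest DSS mouse.

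The genes that load and start the helicase were low. Cdc6, the loader, averaged 3.03 ± 0.803 FPKM (1.63 to 3.54) in DSS, 3.13 ± 1.59 (0.324 to 4.14) in DSS_ICB and 2.05 ± 1.08 (0.808 to 3.2) in DSS_ICB_Fp. Cdc45, which joins the ring when an origin fires, averaged 4.52 ± 0.881 FPKM (3.17 to 5.43) in DSS, 4.2 ± 2.03 (1.08 to 5.77) in DSS_ICB and 3.36 ± 1.69 (1.84 to 5.23) in DSS_ICB_Fp. Gins1 (ENSMUSG00000027454), a GINS subunit, measured 5.57, 4.3, 4.52, 2.83 and 4.21 FPKM in DSS mice 1 to 5, 4.74, 8.76, 1.87, 6.5 and 4.74 in DSS_ICB mice 1 to 5 and 3.23, 2.23, 3.77, 6.01 and 1.91 in DSS_ICB_Fp mice 1 to 5. DSS_ICB 2 was the highest of all 15 mice for Gins1, and DSS_ICB 3 and DSS_ICB_Fp 5 the lowest. Gins2 (ENSMUSG00000031821), a second GINS subunit, measured 8.31, 4.18, 7.37, 4.02 and 5.91 FPKM in DSS mice 1 to 5, 7.28, 13.7, 4.98, 8.37 and 4.58 in DSS_ICB mice 1 to 5 and 5.91, 4.74, 7.87, 7.87 and 5.25 in DSS_ICB_Fp mice 1 to 5. It stood apart from the other replication genes, since DSS_ICB 3 held 83.6% of the DSS mean and was not the lowest of its group, and DSS_ICB 2 held 230% of it.

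Genes of the clamp and of nucleotide supply covered the widest range of levels. Pcna (ENSMUSG00000027342, chr2:132249162-132253314, minus strand), the sliding clamp, measured 67.4, 68.2, 61.6, 43.8 and 51 FPKM in DSS mice 1 to 5, 65.8, 75.4, 28, 74.2 and 62.4 in DSS_ICB mice 1 to 5 and 34.1, 30.9, 63.5, 64.9 and 34 in DSS_ICB_Fp mice 1 to 5. Rrm1 (ENSMUSG00000030978), the large subunit of ribonucleotide reductase, measured 14.7, 12.5, 10.8, 7.7 and 11.6 FPKM in DSS mice 1 to 5, 14.2, 14, 2.61, 12.9 and 11.1 in DSS_ICB mice 1 to 5 and 5.44, 5.28, 12.4, 11.5 and 5.04 in DSS_ICB_Fp mice 1 to 5. Rrm2 (ENSMUSG00000020649), its small subunit, whose protein is made in S phase, measured 25.6, 14.8, 20.4, 10.9 and 19.7 FPKM in DSS mice 1 to 5, 24.7, 35.2, 5.39, 26.4 and 28.4 in DSS_ICB mice 1 to 5 and 8.56, 6.71, 22.7, 24 and 5.07 in DSS_ICB_Fp mice 1 to 5. For all 3 genes mice 1, 2 and 5 of DSS_ICB_Fp lay below every DSS mouse, and mice 3 and 4 lay within the DSS range. Tyms (ENSMUSG00000025747), thymidylate synthase, measured 7.65, 7.76, 7.12, 4.79 and 5.3 FPKM in DSS mice 1 to 5, 5.63, 8.34, 2.07, 8.94 and 5.32 in DSS_ICB mice 1 to 5 and 4.4, 4.79, 5.47, 6.9 and 3.76 in DSS_ICB_Fp mice 1 to 5. Its lowest level of all was in DSS_ICB 3, and the lowest of the gavaged mice was mouse 5. Ccne1 (ENSMUSG00000002068, chr7:38097984-38107534, minus strand), cyclin E1, which starts S phase with CDK2, measured 4.5, 3.07, 5.28, 2.34 and 3.48 FPKM in DSS mice 1 to 5, 5.12, 6.46, 1.93, 5.24 and 6.26 in DSS_ICB mice 1 to 5 and 2.13, 1.71, 3.46, 6.04 and 1.38 in DSS_ICB_Fp mice 1 to 5. Here 4 of 5 DSS_ICB mice lay between 5.12 and 6.46 FPKM, 3 of 5 gavaged mice at or under 2.13 FPKM, and the groups overlapped through DSS_ICB 3 and DSS_ICB_Fp 3 and 4.

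Among the mitosis genes, the general proliferation markers were among the most abundant. Mki67 (ENSMUSG00000031004, chr7:135689784-135716361, minus strand), the Ki-67 antigen of cycling cells, measured 35.8, 37.5, 30.9, 22.2 and 35.7 FPKM in DSS mice 1 to 5, 37.9, 45.9, 4.54, 33 and 23.9 in DSS_ICB mice 1 to 5 and 15.6, 16.9, 35.2, 25.5 and 9.9 in DSS_ICB_Fp mice 1 to 5. Top2a (ENSMUSG00000020914, chr11:98992943-99024189, minus strand), the topoisomerase that untangles replicated chromosomes, measured 35.9, 33.1, 27, 20.2 and 31.1 FPKM in DSS mice 1 to 5, 36.7, 33.7, 2.76, 30.1 and 24.5 in DSS_ICB mice 1 to 5 and 14.6, 14.8, 32.9, 23.6 and 9.9 in DSS_ICB_Fp mice 1 to 5. In both, DSS_ICB 3 was lowest and DSS_ICB_Fp 5 next, at 9.90 FPKM for each gene, and the DSS_ICB group ran from below to above the whole DSS range.

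Cyclins and their kinase followed the same mice. Ccnb1 (ENSMUSG00000041431, chr13:100778650-100786570, minus strand), cyclin B1, measured 13.6, 12.5, 10.8, 7.84 and 12.4 FPKM in DSS mice 1 to 5, 13.6, 16.2, 1.35, 17.1 and 9.99 in DSS_ICB mice 1 to 5 and 4.49, 6.06, 13.2, 11.1 and 2.89 in DSS_ICB_Fp mice 1 to 5. Cdk1 (ENSMUSG00000019942, chr10:69335146-69352938, minus strand), the kinase it activates, measured 12.4, 12.7, 9.69, 7.19 and 10.1 FPKM in DSS mice 1 to 5, 12.5, 14.2, 3.49, 14.4 and 8.84 in DSS_ICB mice 1 to 5 and 3.99, 5.17, 10.4, 12.2 and 2.54 in DSS_ICB_Fp mice 1 to 5. Cdk1 in DSS_ICB_Fp 5, at 2.54 FPKM, was the lowest of all 15 mice, below DSS_ICB 3 at 3.49 FPKM. Ccna2, cyclin A2, averaged 35.1 ± 7.18 FPKM (26.1 to 45.1) in DSS, 37.1 ± 19.9 (7.51 to 60.2) in DSS_ICB and 24.8 ± 13.6 (9.97 to 40.6) in DSS_ICB_Fp. Ccnb2, whose promoter is printed above, averaged 35.5 ± 3.01 FPKM (31.4 to 38.5) in DSS, 33.1 ± 19.3 (5.07 to 53) in DSS_ICB and 28.1 ± 14.3 (11.1 to 44.1) in DSS_ICB_Fp. The 5 DSS mice were close together for this gene, and the other groups were not.

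**Figure D2:**
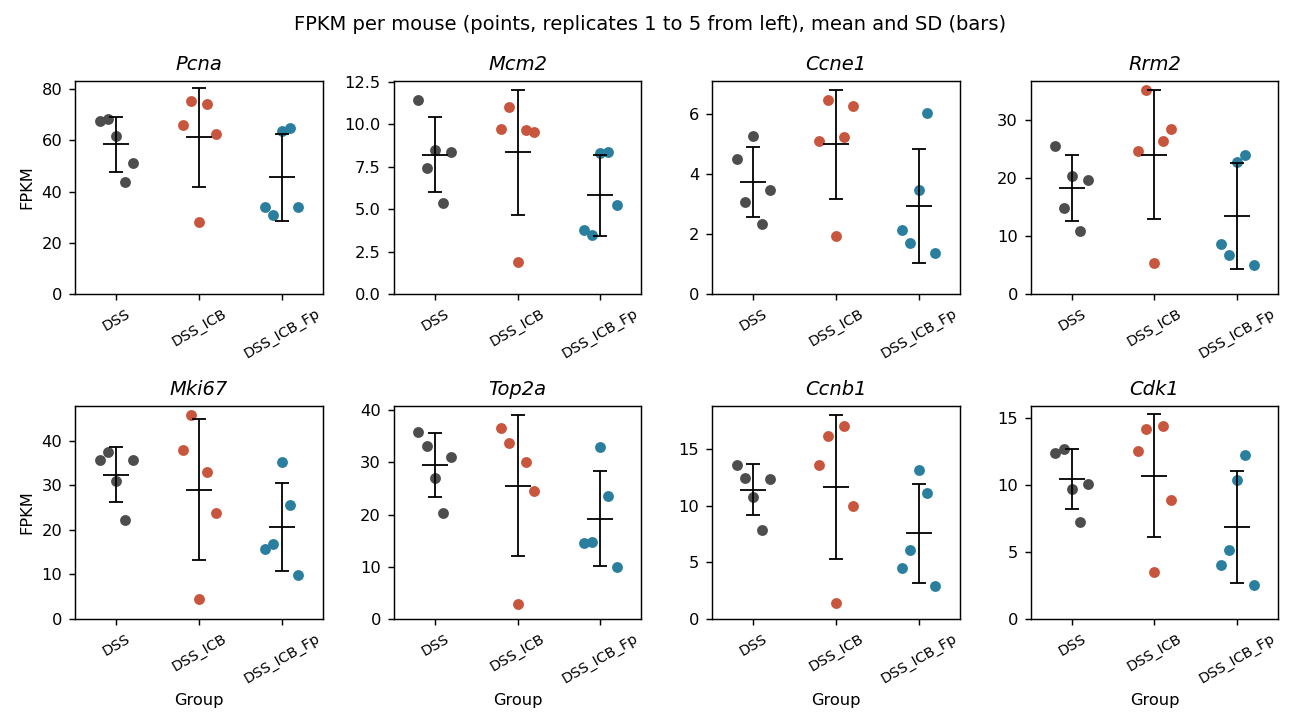
FPKM of 4 replication genes (Pcna, Mcm2, Ccne1 and Rrm2) and 4 mitosis genes (Mki67, Top2a, Ccnb1 and Cdk1) by group, with 1 point per mouse (replicates 1 to 5 from the left) and black bars for the mean and SD over 5 mice. DSS_ICB 3 is the lowest of its group in all 8 panels, and gavaged mice 3 and 4 are the highest of theirs.

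The chromosomal passenger and spindle kinase genes spanned levels from Aurkb to Plk1. Birc5 (ENSMUSG00000017716), survivin, a passenger complex subunit, measured 16.8, 15.2, 15.4, 11.2 and 15 FPKM in DSS mice 1 to 5, 19.2, 30.2, 5.97, 23.2 and 13.8 in DSS_ICB mice 1 to 5 and 6.92, 8.09, 17.5, 20.3 and 4.16 in DSS_ICB_Fp mice 1 to 5. Aurkb, the kinase of that complex, averaged 8.06 ± 1.89 FPKM (5.49 to 10.3) in DSS, 8.55 ± 4.46 (1.93 to 13.6) in DSS_ICB and 6.44 ± 2.95 (2.87 to 9.58) in DSS_ICB_Fp. Aurka, the centrosomal Aurora kinase, averaged 12.3 ± 2.67 FPKM (9.12 to 15.1) in DSS, 13.6 ± 7 (2.68 to 20.8) in DSS_ICB and 8.76 ± 4.67 (3.69 to 13.8) in DSS_ICB_Fp. Tpx2 activates Aurora A on the spindle. It averaged 13.4 ± 2.57 FPKM (9.45 to 15.5) in DSS, 13.6 ± 7.06 (2.22 to 20.8) in DSS_ICB and 9.67 ± 5.39 (3.66 to 16.7) in DSS_ICB_Fp. Plk1, which acts from mitotic entry to cytokinesis, averaged 29.6 ± 6.36 FPKM (20.5 to 37.4) in DSS, 29.3 ± 16 (7.41 to 47.7) in DSS_ICB and 26.2 ± 5.59 (21.7 to 32.8) in DSS_ICB_Fp. Plk1 was the mitosis gene least displaced in the gavaged mice, since mice 1, 2 and 5 held 21.7 to 22.6 FPKM, all above the lowest DSS mouse at 20.5 FPKM.

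The kinetochore genes were mostly low, and Cenpf had the lowest mean of the mitosis genes. Cenpf (ENSMUSG00000026605), a large kinetochore protein of G2 and mitosis, measured 3.4, 3.27, 3.17, 2.64 and 3.24 FPKM in DSS mice 1 to 5, 3.58, 4.43, 0.365, 3.45 and 1.93 in DSS_ICB mice 1 to 5 and 1.39, 1.9, 3.62, 2.03 and 1.13 in DSS_ICB_Fp mice 1 to 5. Cenpa, the centromeric histone, averaged 6.61 ± 1.42 FPKM (5.27 to 8.2) in DSS, 6.78 ± 3.52 (1.49 to 10.5) in DSS_ICB and 5 ± 2.65 (2.23 to 8.25) in DSS_ICB_Fp. Cenpe, a kinetochore motor, averaged 5.96 ± 1.18 FPKM (4.24 to 7.19) in DSS, 5.41 ± 2.85 (0.821 to 8.02) in DSS_ICB and 3.78 ± 1.98 (1.43 to 6.79) in DSS_ICB_Fp. The checkpoint kinase gene Bub1 and its relative Bub1b both hold anaphase until chromosomes attach. Bub1 averaged 7.27 ± 1.63 FPKM (5.3 to 8.81) in DSS, 6.76 ± 3.67 (0.682 to 9.9) in DSS_ICB and 4.87 ± 2.58 (2.13 to 8.39) in DSS_ICB_Fp. Bub1b averaged 12.7 ± 2.1 FPKM (9.63 to 14.7) in DSS, 11.5 ± 5.99 (1.76 to 16.7) in DSS_ICB and 8.8 ± 4.29 (4.23 to 14.8) in DSS_ICB_Fp.

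For the spindle motors, Kif11 (ENSMUSG00000012443), the kinesin that separates the spindle poles, measured 15, 12.1, 11.4, 7.58 and 12.5 FPKM in DSS mice 1 to 5, 14.1, 13.6, 0.969, 11.4 and 8.29 in DSS_ICB mice 1 to 5 and 5.7, 5.57, 13, 8.99 and 3.76 in DSS_ICB_Fp mice 1 to 5. DSS_ICB 3 held 8.27% of the DSS mean of Kif11, the lowest share of any of the 36 genes in any library. Kif23 (ENSMUSG00000032254), a kinesin of the central spindle, measured 9.39, 8.54, 8.04, 6.27 and 8.79 FPKM in DSS mice 1 to 5, 11.2, 12.6, 1.65, 8.51 and 8.32 in DSS_ICB mice 1 to 5 and 4.25, 3.96, 8.1, 8.35 and 2.11 in DSS_ICB_Fp mice 1 to 5. Kif20a, another central spindle kinesin, averaged 11 ± 1.16 FPKM (9.31 to 12.5) in DSS, 10.2 ± 5.25 (1.22 to 14.1) in DSS_ICB and 7.68 ± 4.1 (3.17 to 13.2) in DSS_ICB_Fp. At mitotic exit, Ube2c (ENSMUSG00000001403), the ubiquitin-conjugating enzyme of the anaphase-promoting complex, measured 26.6, 15.7, 25.5, 17.9 and 24.8 FPKM in DSS mice 1 to 5, 31.2, 50.8, 9.14, 33.3 and 24 in DSS_ICB mice 1 to 5 and 10.7, 14.9, 26.7, 32.3 and 7.38 in DSS_ICB_Fp mice 1 to 5. Cdc20, the activator of that complex, averaged 30 ± 5.5 FPKM (22.9 to 37.4) in DSS, 36.1 ± 19.1 (8.11 to 59.3) in DSS_ICB and 23.8 ± 14.5 (9.1 to 41.8) in DSS_ICB_Fp. In Ube2c, DSS_ICB 2 stood at 230% of the DSS mean and DSS_ICB 3 at 41.3%, so the DSS_ICB mice lay on both sides of all DSS mice.

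The first comparison, DSS_ICB against DSS, asks how mice given ICB beside DSS differed from mice given DSS alone. No cell cycle gene passed the test in either direction. Mean levels lay on both sides, such as 29.7 FPKM with ICB against 22.1 without it for Ube2c and 25.5 against 29.4 for Top2a. The groups overlapped for all 36 genes. The median log2 difference was -0.10 for replication and -0.22 for mitosis genes, against 0.02 over all tested genes. In limma's fit on log2(FPKM + 1) over 14385 genes, with Benjamini-Hochberg adjustment over all of them, 0 of 15 replication and 0 of 21 mitosis genes passed at an adjusted p under 0.05, where 0.0209% of all tested genes did. At an unadjusted p under 0.05 there were 0 and 0, against 11.3% of all genes. Log2 differences below 0 were seen in 10 of 15 replication and 18 of 21 mitosis genes, against 47.2% of all genes, and the smallest adjusted p was 0.638 and 0.645. Groups that do not overlap were found for 1.21% of all tested genes with DSS_ICB above DSS and 0.327% with it below.

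Single genes lay on both sides of 0 in that comparison. The log2 difference of DSS_ICB minus DSS was 0.30 (SE 0.31, limma adjusted p = 0.685) for Ccne1 and 0.29 (SE 0.26, limma adjusted p = 0.638) for Gins2. For Tyms it was -0.18 (SE 0.27, limma adjusted p = 0.786). The 2 standard proliferation markers had values below 0, with -0.43 (SE 0.48, limma adjusted p = 0.715) for Mki67 and -0.52 (SE 0.52, limma adjusted p = 0.679) for Top2a. Their 95% intervals ran from -1.46 to 0.59 and from -1.63 to 0.59, on both sides of 0. Kif11 stood at -0.52 (SE 0.47, limma adjusted p = 0.645) and Cenpf at -0.29 (SE 0.31, limma adjusted p = 0.702). Ccnb1 was at -0.25 (SE 0.49, limma adjusted p = 0.845), Mcm2 at -0.10 (SE 0.36, limma adjusted p = 0.92) and Pcna at 0.01 (SE 0.28, limma adjusted p = 0.994).

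The sign of this comparison turned on 1 mouse. Without DSS_ICB 3, all 36 genes had a log2 difference above 0, where 38.6% of all tested genes lay below 0. The medians became 0.29 for replication and 0.24 for mitosis genes (all genes 0.06), and 0 of 36 reached an unadjusted p under 0.05, where 7.17% of all genes were higher and 1.95% lower. Mki67 moved to 0.10 (SE 0.29, limma adjusted p = 0.92), Ccnb1 to 0.29 (SE 0.32, limma adjusted p = 0.766) and Rrm2 to 0.66 (SE 0.38, limma adjusted p = 0.585).

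The second comparison, DSS_ICB_Fp against DSS_ICB, asks how mice given the bacterium beside ICB differed from mice given ICB without it. On the log2(FPKM + 1) scale, the difference was below 0 for all 15 replication genes and 20 of 21 mitosis genes, the exception being Plk1 at 0.06, but no gene passed the test. The largest log2 difference was in Rrm2, with means of 13.4 ± 9.18 against 24 ± 11.2 FPKM (n = 5 each). The median log2 difference was -0.36 for replication and -0.32 for mitosis genes, against -0.04 over all tested genes, of which 55.5% lay below 0. By limma, 0 of 15 and 0 of 21 passed at an adjusted p under 0.05, where 0.132% of all tested genes did, and 0 and 0 at an unadjusted p under 0.05, where 21.8% did. All groups overlapped, where 2.46% of all genes had every gavaged mouse below every DSS_ICB mouse and 0.945% the opposite.

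The smallest unadjusted p-values of the members were 0.0521 for Ccne1 and 0.104 for Rrm2. The log2 difference of DSS_ICB_Fp minus DSS_ICB was -0.65 (SE 0.31, limma adjusted p = 0.233) for Ccne1, with a 95% interval of -1.31 to 0.01. Rrm2 had -0.83 (SE 0.48, limma adjusted p = 0.322) and Gins1 -0.48 (SE 0.30, limma adjusted p = 0.355). In the mitosis list, Birc5 had -0.69 (SE 0.41, limma adjusted p = 0.333), Cdk1 -0.62 (SE 0.38, limma adjusted p = 0.354) and Ube2c -0.67 (SE 0.42, limma adjusted p = 0.361). The markers Mki67, at -0.29 (SE 0.48, limma adjusted p = 0.753), and Top2a, at -0.16 (SE 0.52, limma adjusted p = 0.884), differed less. Ccnb1 stood at -0.44 (SE 0.49, limma adjusted p = 0.629), Pcna at -0.42 (SE 0.28, limma adjusted p = 0.401) and Mcm2 at -0.37 (SE 0.36, limma adjusted p = 0.569).

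DSS_ICB 3 weighed on this comparison as well. Without it, all 36 genes lay below 0 (60.4% of all genes), with medians of -0.73 for replication and -0.78 for mitosis genes. At an unadjusted p under 0.05, 13 of 15 and 19 of 21 genes were then lower, against 16.3% of all genes, but the smallest adjusted p-values were 0.10 and 0.101, so none passed (0.0626% of all genes did). Rrm2 moved to -1.28 (SE 0.38, limma adjusted p = 0.102), Ccne1 to -0.89 (SE 0.27, limma adjusted p = 0.103) and Mki67 to -0.83 (SE 0.29, limma adjusted p = 0.13). A fit that gave each library a weight by its quality, with DSS_ICB 3 kept, was the only one of 26 alternatives in which any member passed. In it 4 of 15 replication genes (Ccne1, Gins1, Mcm3 and Rrm2) and 3 of 21 mitosis genes (Birc5, Cdk1 and Ube2c) were lower in the gavaged mice at adjusted p-values of 0.0376 to 0.0497, in a fit that called 6.7% of all tested genes. With the level of the epithelium markers as a covariate the medians were -0.83 and -0.94, and 14 of 15 and 21 of 21 genes were lower at an unadjusted p under 0.05 (17.1% of all genes), with a smallest adjusted p of 0.0948 (0.0417% of all genes passed). That covariate was far lowest in DSS_ICB 3, whose epithelium markers summed to 694 FPKM, with the next lowest library at 3372 FPKM. This fit is therefore not independent of leaving DSS_ICB 3 out, and the covariate was not fitted without that mouse.

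**Figure D3:**
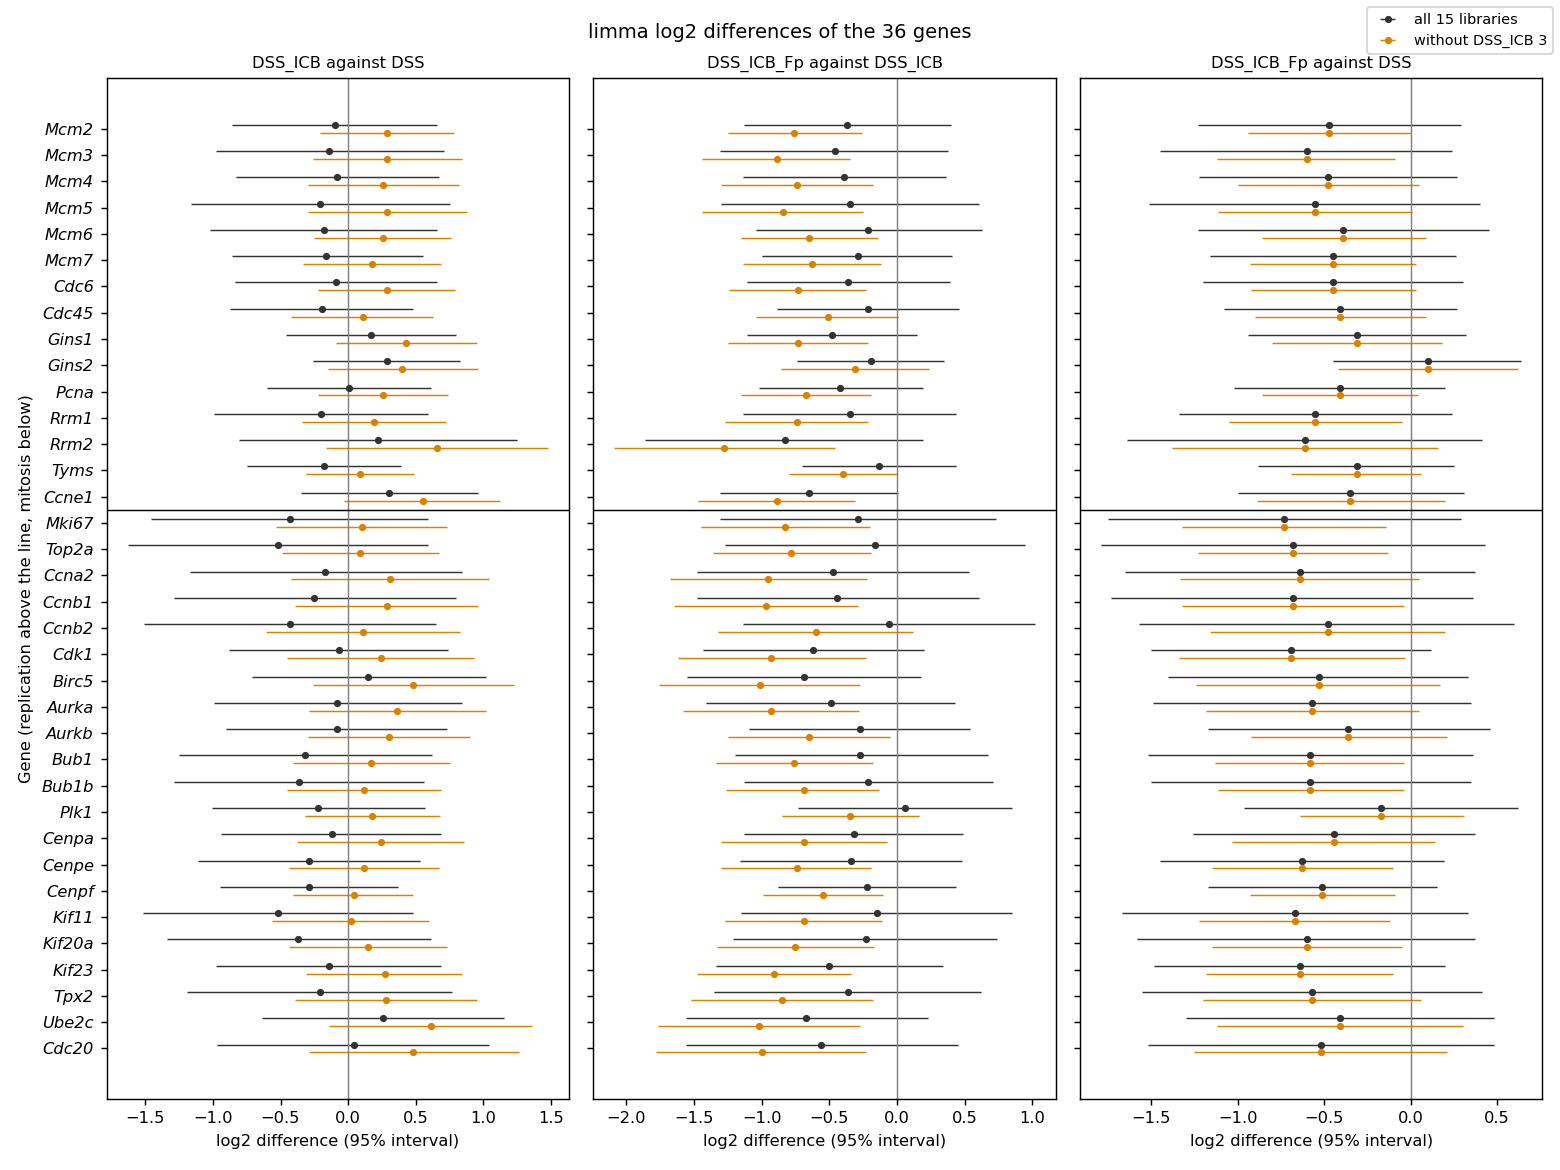
limma log2 differences of the 36 genes in the 3 comparisons (panels), with 95% intervals, fitted on all 15 libraries (grey) and without DSS_ICB 3 (orange). In the left panel all orange points lie above 0, in the middle panel all lie below 0, and in the right panel the points are the same and the intervals are narrower.

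The third comparison, DSS_ICB_Fp against DSS, sets mice with all 3 treatments against mice with DSS alone and does not use the values of DSS_ICB 3 other than for the pooled spread. The log2 difference was below 0 for all 21 mitosis genes and 14 of 15 replication genes, Gins2 being the exception, and none passed the test. Mki67 averaged 20.6 ± 9.89 against 32.4 ± 6.22 FPKM, a log2 difference of -0.73 (SE 0.48, limma adjusted p = 1). Median log2 differences were -0.45 for replication and -0.58 for mitosis genes, against -0.01 over all genes, of which 52.9% lay below 0. By limma 0 of 36 passed at an adjusted p under 0.05, where 0% of all tested genes did, and 0 of 36 reached an unadjusted p under 0.05, where 1.41% did. Groups overlapped for every member, where 0.195% of all genes had DSS_ICB_Fp wholly above DSS and 0.195% wholly below. This comparison shares its gavaged mice with the second and its DSS mice with the first, so the 3 sets of differences are not independent.

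Cdk1 had the smallest unadjusted p of the 36 genes in this comparison. Its log2 difference was -0.69 (SE 0.38, limma adjusted p = 1). Kif23 stood at -0.64 (SE 0.39, limma adjusted p = 1) and Cenpf at -0.51 (SE 0.31, limma adjusted p = 1). Of the replication genes, Mcm3 had -0.60 (SE 0.40, limma adjusted p = 1), Rrm1 -0.55 (SE 0.37, limma adjusted p = 1) and Pcna -0.41 (SE 0.28, limma adjusted p = 1). The remaining fixed genes were Top2a at -0.68 (SE 0.52, limma adjusted p = 1), Ccnb1 at -0.68 (SE 0.49, limma adjusted p = 1), Mcm2 at -0.47 (SE 0.36, limma adjusted p = 1) and Ccne1 at -0.35 (SE 0.31, limma adjusted p = 1). Leaving DSS_ICB 3 out of the pooled spread left these differences as they were and narrowed their errors. Then 3 of 15 replication and 11 of 21 mitosis genes were lower at an unadjusted p under 0.05 (1.97% of all genes), with a smallest adjusted p of 0.981.

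With all 15 libraries, the members varied more between mice of 1 group than most genes did, and mice of a group did not form 1 level. The median SD of log2(FPKM + 1) over the 36 genes was 0.296 in DSS, 0.945 in DSS_ICB and 0.633 in DSS_ICB_Fp, against 0.22, 0.372 and 0.226 over all tested genes. SDs were larger in DSS_ICB than in DSS for 36 of 36 genes (78.7% of all genes), and larger in DSS_ICB_Fp than in DSS for 34 of 36 (52% of all genes), with Gins2 and Plk1 as the exceptions. The DSS_ICB spread rested on DSS_ICB 3. Without it the median SD over the 36 genes was 0.301 in the other 4 mice (0.25 over all tested genes). The lists differed, with 0.206 for replication genes, under the value of all tested genes, and 0.355 for mitosis genes. The SD was above that of DSS for 22 of 36 genes (57.8% of all genes), 5 of 15 replication and 17 of 21 mitosis genes.

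A relative level per mouse was formed by dividing each gene's FPKM by its mean in DSS and taking the median over the list. In DSS it was 130%, 100%, 106%, 67.2% and 98.3% for replication and 119%, 103%, 95.3%, 76% and 109% for mitosis genes in mice 1 to 5. In DSS_ICB it was 122%, 134%, 29.5%, 127% and 107% for replication and 129%, 149%, 16.5%, 115% and 83.3% for mitosis. In DSS_ICB_Fp it was 50.3%, 45.7%, 108%, 114% and 57.6% for replication and 48%, 55.1%, 115%, 103% and 30.3% for mitosis. DSS 4 was the low mouse of its group, the lowest of 5 for 31 of 36 genes (22.3% of all genes). DSS_ICB mice 1, 2 and 4 were at or above the DSS level, and DSS_ICB 2 was the highest of all 15 mice for 25 of 36 genes (17.5% of all genes). DSS_ICB 3 was the lowest of its group for 35 of 36 genes (50.8% of all genes) and of all 15 mice for 30 of 36 (36.6% of all genes). Its share of the DSS mean ran from 10.7% (Cdc6) to 83.6% (Gins2) in replication genes and from 8.27% (Kif11) to 41.3% (Ube2c) in mitosis genes.

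The gavaged mice did not share 1 level. In 36 of 36 genes mice 1, 2 and 5 were all below mice 3 and 4, an order that 19.2% of all tested genes had. Mice 1, 2 and 5 were below the lowest DSS mouse for 33, 32 and 32 of the 36 genes, against 22.9%, 21.4% and 19.2% of all genes. Mouse 3 was so for 0 genes and mouse 4 for 1, Cenpf, against 11.5% and 20.6% of all genes. This order was read from the data, defines no group of the study and was not tested.

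Cell type markers are given beside these levels. The relative level of the 10 epithelium markers was 105%, 93.6%, 101%, 128% and 103% in gavaged mice 1 to 5. That of the 10 crypt base and progenitor markers was 128%, 114%, 118%, 108% and 123%. By list median, the low cell cycle levels of mice 1, 2 and 5 thus stood beside epithelial and crypt markers near or above the DSS mean. Single genes of these lists differed. Ephb2 was 3.82, 4.4 and 4.14 FPKM in mice 1, 2 and 5, below 4.79 and 5.62 FPKM in mice 3 and 4. Cdca7, Krt8, Krt18 and Krt19 were also lower in mice 1, 2 and 5 than in mice 3 and 4. Ephb3, Rnf43, Znrf3 and Cdh1 were higher there, and in the remaining genes the mice overlapped. The list medians of the absorptive colonocyte and neutrophil markers divided the gavaged mice into the same sets as the cell cycle genes. The 10 absorptive colonocyte markers were at 113%, 120% and 174% in mice 1, 2 and 5, above 102% and 78.3% in mice 3 and 4. Most single absorptive genes did not divide the mice so, such as Car1 (217, 683 and 793 FPKM against 500 and 572 FPKM). Nor did their sum, at 1705, 1991 and 2778 FPKM in mice 1, 2 and 5 and 1795 and 1743 FPKM in mice 3 and 4. The 10 neutrophil markers were at 23.2%, 13.3% and 11.5% in mice 1, 2 and 5, below 50.2% and 89% in mice 3 and 4. In DSS_ICB 3 the epithelium markers were at 14.5%, the crypt markers at 39.5% and the smooth muscle markers at 461%, beside 29.5% and 16.5% for replication and mitosis genes. Neutrophil markers summed to 2141 and 1389 FPKM in DSS_ICB 3 and 5, 337 to 410 in the other 3 DSS_ICB mice, 119 to 250 in DSS and 112 to 222 in DSS_ICB_Fp. The gene Ly6g made up most of the sums in DSS (97.3 to 207 FPKM) and DSS_ICB_Fp (109 to 187 FPKM). Unlike the sum, Ly6g was lowest in DSS_ICB 3 (87.2 FPKM). S100a8 was 593 FPKM in DSS_ICB 3, 4.22 to 15.9 FPKM in DSS and 0 to 9.3 FPKM in DSS_ICB_Fp. B cell follicle and germinal centre markers, which in part mark dividing B cells, summed to 3.99 to 107 FPKM in DSS, 15.9 to 156 in DSS_ICB and 3.39 to 82.4 in DSS_ICB_Fp. In the gavaged mice their highest sum was in mouse 5, 1 of the 3 with low cell cycle levels, and 1 of the 10 genes, Rgs13, was listed at 0 in DSS_ICB 2 and 3. T cell markers summed to 8.69 to 45.9 FPKM over all mice. The part of these cell types in the cell cycle levels was not tested.

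**Figure D4:**
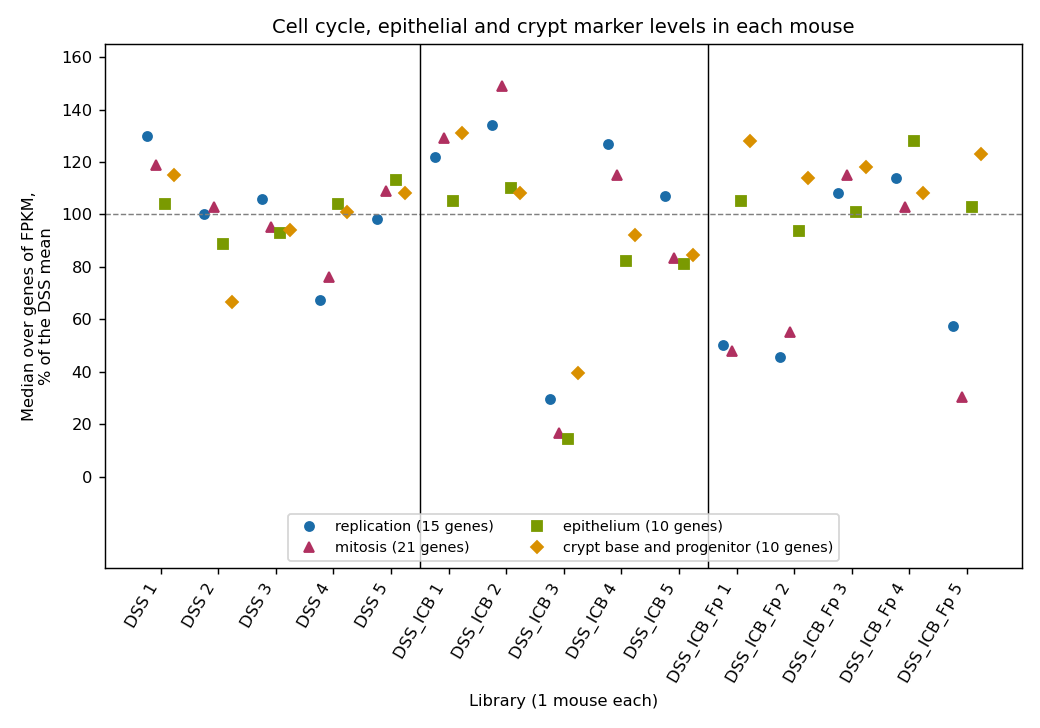
Median over genes of FPKM as a percentage of each gene's DSS mean, for 15 replication genes (circles), 21 mitosis genes (triangles), 10 epithelium markers (squares) and 10 crypt base and progenitor markers (diamonds) in each mouse, with vertical lines between groups and a dashed line at 100%. In DSS_ICB 3 all 4 lists are below 40%, whereas in DSS_ICB_Fp 1, 2 and 5 the cell cycle lists are at 30.3% to 57.6% and the marker lists at 93.6% to 128%.

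Replication and mitosis genes did not move in step in every mouse. The mean log2(FPKM + 1) of the mitosis genes minus that of the replication genes was 0.16 to 0.48 in the 5 DSS mice. It was 0.41, 0.40, -0.28, 0.25 and 0.00 in DSS_ICB mice 1 to 5 and 0.14, 0.55, 0.44, 0.15 and -0.33 in DSS_ICB_Fp mice 1 to 5. Mitosis genes were thus low relative to replication genes in DSS_ICB 3 and DSS_ICB_Fp 5, and to a lesser degree in DSS_ICB 5. In DSS_ICB_Fp 5 all 21 mitosis genes were the lowest of the group, whereas 9 of the 15 replication genes were lowest in mouse 2.

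Wider lists of cell cycle genes were read beside the members. Of 33 other replication genes all were tested, and 0 passed in any comparison. Their median log2 difference was -0.06 in the first comparison, -0.25 in the second and -0.30 in the third, with 19, 31 and 33 genes below 0. Without DSS_ICB 3 the first 2 medians were 0.20 and -0.51, with 2 and 33 genes below 0. Dut, which clears dUTP, had 0.40 (SE 0.30, limma adjusted p = 0.577) in DSS_ICB against DSS, and Pola1, a polymerase alpha subunit, -0.26 (SE 0.24, limma adjusted p = 0.655). Without DSS_ICB 3 these were 0.64 (SE 0.26, limma adjusted p = 0.54) and -0.02 (SE 0.17, limma adjusted p = 0.979). In DSS_ICB_Fp against DSS_ICB, Cdc7, the kinase that fires origins, had -0.44 (SE 0.14, limma adjusted p = 0.112), and it was the only gene of the 4 wider lists whose groups did not overlap in any comparison (2.46% of all genes in this direction). Pola2, a second polymerase alpha subunit, had -0.41 (SE 0.15, limma adjusted p = 0.147). Against DSS, Cdc7 had -0.30 (SE 0.14, limma adjusted p = 1) and Pole, the leading strand polymerase, -0.46 (SE 0.23, limma adjusted p = 1). Low levels limit these, since Pole averaged 1.19 FPKM in DSS_ICB_Fp.

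For 40 other mitotic genes, also all tested with 0 passing, the medians were -0.20, -0.28 and -0.46, with 33, 38 and 39 genes below 0. Without DSS_ICB 3 the first 2 medians were 0.18 and -0.65, with 6 and 39 genes below 0. In the first comparison Nusap1, a spindle microtubule protein, had -0.62 (SE 0.46, limma adjusted p = 0.569) and Knl1, a kinetochore scaffold, -0.38 (SE 0.30, limma adjusted p = 0.596). Both values rested on DSS_ICB 3, and without it Nusap1 had -0.10 (SE 0.26, limma adjusted p = 0.912) and Knl1 -0.06 (SE 0.20, limma adjusted p = 0.933). In the second, Cks1b, a CDK partner, had -0.74 (SE 0.33, limma adjusted p = 0.215) and Cdc25b, a phosphatase that activates CDK1, -0.45 (SE 0.24, limma adjusted p = 0.29). Without DSS_ICB 3 these were -0.93 (SE 0.32, limma adjusted p = 0.129) and -0.64 (SE 0.21, limma adjusted p = 0.112). In the third, Anln, a cleavage furrow protein, had -0.71 (SE 0.37, limma adjusted p = 1) and Aspm, a spindle pole protein, -0.49 (SE 0.26, limma adjusted p = 1). The promoters of these wider lists held the same letters in lower or similar shares, with E2F letters in 59.4% of 32 other replication promoters and CHR letters in 68.6% of 35 other mitotic promoters. CCAAT was less common than in the members, in 46.9% of the other replication and 60% of the other mitotic promoters (37.4% of all promoters). CCAAT and CHR letters together stood in 6.25% and 54.3% (7.52% of all promoters).

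The 18 genes that control the G1 to S step, all tested with 0 passing, had medians of 0.05, -0.22 and -0.17. Without DSS_ICB 3 the first 2 were 0.20 and -0.31. Ccnd1, cyclin D1, averaged 37.5 FPKM with ICB, 26 with DSS alone and 21.3 with the gavage, and its log2 difference was 0.44 (SE 0.22, limma adjusted p = 0.454) in the first and -0.73 (SE 0.22, limma adjusted p = 0.106) in the second comparison. Rb1, the retinoblastoma protein, had -0.32 (SE 0.15, limma adjusted p = 0.446) in the first and, without DSS_ICB 3, -0.21 (SE 0.14, limma adjusted p = 0.619). Ccnd2, cyclin D2, had -0.48 (SE 0.26, limma adjusted p = 0.285) in the second. Without DSS_ICB 3, Ccnd1 had 0.62 (SE 0.18, limma adjusted p = 0.54) in the first and -0.92 (SE 0.18, limma adjusted p = 0.0812) in the second. Ccnd2 then had -0.71 (SE 0.20, limma adjusted p = 0.0992) in the second. In the third, Tfdp1, the partner of E2F proteins, had -0.43 (SE 0.31, limma adjusted p = 1) and the repressor E2f7 -0.27 (SE 0.20, limma adjusted p = 1).

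The brakes on the cycle lay on both sides of 0. Of 18 CDK inhibitors and p53 arrest targets, 17 were tested, Cdkn2a being too low, and 0 passed, with medians of 0.13, -0.08 and 0.08. Without DSS_ICB 3 the first 2 were 0.12 and -0.15. Trp53inp1, a p53 target, had -0.67 (SE 0.25, limma adjusted p = 0.43) in the first comparison and 0.85 (SE 0.25, limma adjusted p = 0.102) in the second. Its mean was 12.8 FPKM with DSS alone, 7.87 with ICB and 15.5 with the gavage. Without DSS_ICB 3 its differences were -0.57 (SE 0.25, limma adjusted p = 0.54) and 0.74 (SE 0.25, limma adjusted p = 0.122). Gadd45b, a stress-induced gene, had 0.74 (SE 0.28, limma adjusted p = 0.43) in the first and, without DSS_ICB 3, 0.48 (SE 0.22, limma adjusted p = 0.544). Cdkn2d, an inhibitor of CDK4 and CDK6, had -0.57 (SE 0.18, limma adjusted p = 0.115) in the second and, without DSS_ICB 3, -0.43 (SE 0.16, limma adjusted p = 0.138). In the third, Sesn1, a p53-induced sestrin, had -0.37 (SE 0.17, limma adjusted p = 1) and Gadd45a, another p53 target, 0.34 (SE 0.21, limma adjusted p = 1).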

How the data were processed

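RNA from the colon of 15 mice was sequenced, 5 in each of 3 groups. The deposited files hold 1 FPKM value per gene and mouse. Per the submitters' processing notes, STAR 2.5, Cuffnorm, DESeq and FastQC were used with the mm10 build; any scaling between libraries beyond FPKM is not given in the sources used here. Gene IDs were matched to GENCODE M21 symbols (55154 of 55335). A gene entered the test where 5 or more libraries held 1 FPKM or more (14385 genes). The test was limma 3.58.1 (R 4.3.3, trend and robust) on log2(FPKM + 1), with 1 mean per group over all 15 libraries, so a fold change is on that scale and understates changes of low genes. p-values were two-sided and Benjamini-Hochberg adjusted over all tested genes, with a threshold of 0.05. The labels do not say that replicates are more than separate samples, so p-values measure the spread between these samples, each read here as 1 mouse. Whole reads were not recovered from the FPKM (28.7% to 33.6% of low values lay within 0.05 of a whole step, against 8.0% to 11.3% midway between steps), so no count test was run and the depth is an estimate.

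The members and lists were chosen with earlier results of these data known, so no list was tested. Full statistics are printed, in each comparison, for Mki67, Top2a, Ccnb1, Pcna, Mcm2 and Ccne1 and for the 3 replication and 3 mitosis genes with the smallest p, and 2 genes are named from each wider list by the same measure. Promoters of the 2 most abundant genes of each list with an entry were to be printed. Pcna was left out, because 134 bases of its stretch lie past a second annotated start, and Mcm5 was printed instead, a choice made after its level was seen; 9 bases of Cdc20 were left out for the same reason. The fit was tested on simulated data with independent noise in each gene and no outlying library. That test therefore does not bear on the effect of DSS_ICB 3. Values without DSS_ICB 3 for the spread and for the wider lists' genes were added after the data were seen. In all, 26 alternatives were tried, among them other pseudocounts, filters, scalings, library weights and leaving out each mouse.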

Additional observations from a re-analysis of the deposited data

Results flagged for a closer look

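Among the 18 genes printed with full statistics, 4 had 1 mouse far from the others of its group, by a gap over range above Dixon's 95% critical value for 5 samples. All 4 are replication genes, and the mouse is DSS_ICB 3 each time. Mcm3 was 3.55 FPKM there, with the other 4 mice at 18.7 to 19.6 (gap over range 0.945). Mcm2 was 1.86 FPKM, with the others at 9.52 to 11 (0.837). Rrm1 was 2.61 FPKM, with the others at 11.1 to 14.2 (0.73). Pcna was 28 FPKM, with the others at 62.4 to 75.4 (0.724). These came from 54 checks of a gene in a group, and chance alone gives a flag in about 1 of 20; the checks are not independent, since they share mice. Over all 36 genes, 108 checks gave 7 flags, 6 of them in DSS_ICB 3.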

How the results depend on the processing

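For the 32 gene differences with full statistics, 783 of 829 values under the alternatives kept direction and side of the threshold, 40 reversed and 6 passed the threshold. Reversals of DSS_ICB against DSS, in log2, came with library quality weights (Mki67 0.08, Top2a 0.05, Ccnb1 0.31, Mcm2 0.20, Tyms 0.18, Cenpf 0.07), with the epithelium covariate (Mki67 0.15, Top2a 0.14, Ccnb1 0.32, Mcm2 0.32, Tyms 0.10, Kif11 0.06, Cenpf 0.07) and without DSS_ICB 3 and 5 (Mki67 0.27, Top2a 0.20, Ccnb1 0.43, Mcm2 0.31, Tyms 0.20, Kif11 0.16, Cenpf 0.22). Pcna, at 0.01, turned to -0.02 with median-of-ratios scaling, -0.04 with upper quartile scaling and -0.02 when rescaled without mitochondrial genes. Leaving out 1 mouse at a time gave -0.67 to 0.10 for Mki67, -0.74 to 0.09 for Top2a, -0.45 to 0.29 for Ccnb1, -0.09 to 0.26 for Pcna, -0.23 to 0.29 for Mcm2, -0.33 to 0.09 for Tyms, -0.72 to 0.02 for Kif11 and -0.46 to 0.04 for Cenpf. Beyond Pcna and Mcm2 (0.01 without DSS 1), these turned above 0 only without DSS_ICB 3. In DSS_ICB_Fp against DSS_ICB, Top2a ran from -0.78 to 0.06, above 0 without DSS_ICB 1, DSS_ICB 2 or DSS_ICB_Fp 5. The cause was not tested.

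With quality weights the counts that passed in DSS_ICB_Fp against DSS_ICB moved from 0 to 4 replication and 3 mitosis genes; they were 0 in every other alternative and comparison. The 6 that passed among the genes with full statistics were Ccne1 (-0.95), Rrm2 (-1.34), Gins1 (-0.83), Birc5 (-1.19), Cdk1 (-1.11) and Ube2c (-1.15). The list medians ran, leaving out 1 mouse at a time, from -0.23 to 0.29 (replication) and -0.43 to 0.24 (mitosis) in DSS_ICB against DSS, -0.73 to -0.22 and -0.78 to -0.11 in DSS_ICB_Fp against DSS_ICB, and -0.59 to -0.30 and -0.78 to -0.38 in DSS_ICB_Fp against DSS. Levels under 1 FPKM, such as Cdc6 and Cenpf in DSS_ICB 3, rest on fewer fragments than higher levels of the same gene. How few depends on the length of the transcript. No paired analysis was possible because the mice are numbered in record order and the labels give no shared number, litter or batch.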
